A study of Mus musculus with 18 samples.

Results

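The genes described here are 39 genes known for their induction by type I interferons, chosen by symbol and followed through the cells of mouse skin. Of the 39 symbols, 37 had a row among the 32285 genes of every mRNA matrix, and Mx1 and Mx2 are not analysed here. By role, the 37 comprised 3 transcription factors, the ubiquitin-like modifier Isg15 with 2 of its enzymes, 5 IFIT RNA-binding proteins, 6 genes of the OAS group (the exonuclease Isg20 among them), 7 RNA or DNA sensors and effectors, 4 restriction factors or GTPases, and 9 other induced genes.

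All mice had back-skin surgery, an incision near the tail from which a path was opened under the skin to the neck. Expanded mice then received a hydrogel expander under the skin near the neck, and control mice received none. Skin was dissected on day 1, 2 or 4, live DAPI-negative cells were sorted, and the mice of an arm were pooled in each sequencing round. The 10 mRNA libraries paired a control pool with an expanded pool 5 times, in day 1 rounds 1 and 2, day 2 rounds 1 and 2, and day 4 round 1. The labels used here give no strain or age, and the library, a pool of mice, was the unit of every test unless hashed mice are named. The p-values therefore measure the spread between these pools.

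Type I interferons (interferon alpha, beta, kappa and relatives) bind the receptor IFNAR1/IFNAR2 on nearly all cells, and kinases at the receptor then activate STAT2, which acts with IRF9 in the complex ISGF3. This complex binds interferon-stimulated response elements in promoters, and the induced proteins bind foreign RNA, degrade it or block virus entry and budding. Interferon gamma acts through a separate receptor, and several of these genes respond to both kinds of interferon. In skin the response is known from infection, wounding and lupus.

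The libraries held 2468 to 9115 barcodes and 17726739 to 75470722 gene UMIs (unique molecular identifiers, each a counted mRNA molecule). After filtering, 45480 cells fell into 30 clusters. Of these, 23 clusters received 1 of 15 class names from marker genes, and 7 clusters with 5380 cells stayed unnamed. Between 8.60% and 17.9% of the barcodes of a control library were over the limit of 10% mitochondrial UMIs, and between 8.63% and 24.4% in an expanded library. The day 1 round 2 control mRNA library carries a title that names hashing, and its hashing library one that names skin. Both titles give the same day, round and arm, the library type and file contents set which was which, and without this library 18 members were called in macrophages (23 with it) and 10 in endothelium (11). Of 46988 distinct cell barcodes, 263 occurred in at least 2 libraries. The members took no part in the clustering, and the class names are rebuilt here, so they can differ from those of the study. Levels are UMIs of a gene per 1000000 UMIs of a class in a library (CPM), and since 3′ counts differ in capture between genes, a gene is compared between classes and arms and not with other genes.

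To show the response element beside the measurements, promoters are printed for 4 members that stood high in macrophages of expanded skin (Isg15, Ifit1, Ifit3, Rsad2), for the member that took the largest share of member UMIs in endothelium (Slfn5), and for a member that moved the other way in macrophages (Oasl1). The sequences are from RefSeq, build GRCm38.p6, 5′ to 3′ on the gene's strand, and cover the 250 bases before the start site. Capitals mark matches to GAAANNGAAA on either strand, the core spacing of an interferon-stimulated response element.
Isg15: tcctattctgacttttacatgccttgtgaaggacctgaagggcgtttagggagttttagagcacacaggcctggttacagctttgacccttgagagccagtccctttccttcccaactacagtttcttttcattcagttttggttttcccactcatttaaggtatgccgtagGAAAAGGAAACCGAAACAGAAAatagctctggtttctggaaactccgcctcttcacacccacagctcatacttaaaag
Ifit1: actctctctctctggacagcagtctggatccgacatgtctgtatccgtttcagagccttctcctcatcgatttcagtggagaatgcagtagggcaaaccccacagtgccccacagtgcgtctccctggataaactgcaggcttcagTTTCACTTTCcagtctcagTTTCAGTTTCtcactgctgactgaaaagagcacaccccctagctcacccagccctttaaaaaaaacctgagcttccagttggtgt
Ifit3: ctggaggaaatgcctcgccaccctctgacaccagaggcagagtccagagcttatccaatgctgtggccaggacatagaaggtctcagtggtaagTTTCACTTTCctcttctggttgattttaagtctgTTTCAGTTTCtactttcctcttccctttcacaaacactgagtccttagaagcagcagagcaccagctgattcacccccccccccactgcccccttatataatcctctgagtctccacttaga
Rsad2: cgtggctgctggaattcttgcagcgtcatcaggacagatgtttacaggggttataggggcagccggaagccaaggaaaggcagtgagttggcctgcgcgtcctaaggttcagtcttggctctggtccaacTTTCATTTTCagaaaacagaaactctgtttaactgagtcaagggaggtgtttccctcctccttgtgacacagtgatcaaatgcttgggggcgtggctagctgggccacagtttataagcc
Slfn5: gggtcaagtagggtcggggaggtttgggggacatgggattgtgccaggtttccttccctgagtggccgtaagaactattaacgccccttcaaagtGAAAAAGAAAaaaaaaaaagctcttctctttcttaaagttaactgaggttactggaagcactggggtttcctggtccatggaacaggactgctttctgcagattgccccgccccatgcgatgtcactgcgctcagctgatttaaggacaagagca
Oasl1: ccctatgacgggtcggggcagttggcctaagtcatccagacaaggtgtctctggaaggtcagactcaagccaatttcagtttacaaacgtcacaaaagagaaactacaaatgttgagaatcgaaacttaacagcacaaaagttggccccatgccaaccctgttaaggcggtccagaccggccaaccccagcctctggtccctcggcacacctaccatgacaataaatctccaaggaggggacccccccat

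These windows lie at chr4:156200819-156201068 (Isg15, minus strand), chr19:34640639-34640888 (Ifit1, plus), chr19:34583279-34583528 (Ifit3, plus), chr12:26456453-26456702 (Rsad2, minus), chr11:82951852-82952101 (Slfn5, plus) and chr5:114922990-114923239 (Oasl1, plus). All lie upstream of the annotated start site. The Isg15 window held 3 overlapping matches in 1 run from 78 to 57 bases before the start. The Ifit1 window held 2 matches, between 104 and 76 bases before the start, and the Ifit3 window 2, between 156 and 113 bases before it. Rsad2 and Slfn5 each had 1 match, and the Oasl1 window had none. Ddx60, the other member that fell in macrophages, had 2 matches, and Ifit2, Irf7 and Cmpk2, which rose there, had none. The table of promoters held 29 of the 37 members, and 14 of the 29 (48.3%) had a match, against 936 of 27025 genes (3.46%). A match describes the letters and is not a measured binding site. Among the members called higher in macrophages 7 of 17 with a promoter (41.2%) held GAAANNGAAA, and among those called lower there 1 of 2 (50.0%). Among those called lower in endothelium 3 of 8 (37.5%) held it.

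In control skin, that is, skin with surgery and no expander, the members were not at 1 level across classes. Endothelial-like cells had the highest mean control level of 18 of 37 members, and macrophage or monocyte-like cells of 9. Slfn5, a Schlafen family gene that interferon induces, stood at 1044 ± 98.5 CPM (SD, n = 5) in endothelium against 108 ± 28.8 in macrophages, the next class. Rsad2, which encodes the antiviral enzyme viperin, stood at 115 ± 37.9 CPM in endothelium and 26.2 ± 16.9 in macrophages. These intervals did not touch, so for both genes the first and second class differed by more than their spread.

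Isg15, the ubiquitin-like modifier that is conjugated to proteins during the response, was at 395 ± 148 CPM in pericyte or smooth muscle-like cells, 357 ± 75.4 in endothelium and 321 ± 208 in lymphatic endothelium. These 3 classes overlapped within their SD. It was lower in Schwann-like cells (118 ± 58.9, n = 4), dendritic-like cells (80.7 ± 25.5), macrophages (53.2 ± 28.5), T cells (45.1 ± 14.5) and NK or innate lymphoid cells (37.8 ± 12.2). Dermal papilla-like cells (35.6 ± 16.1), fibroblasts (28.5 ± 15.7) and suprabasal keratinocytes (25.3 ± 11.6) followed, each within the spread of its neighbours, and basal keratinocytes were lowest at 10.5 ± 7.06. Bst2, which encodes tetherin and holds budding virus at the membrane, was at 289 ± 123 CPM in lymphatic endothelium, 284 ± 71.7 in endothelium and 9.83 ± 4.95 in basal keratinocytes. Ifi27l2a, a small mitochondrial membrane protein, had another order, with 365 ± 210 CPM in macrophages, 248 ± 129 in dendritic cells and 15 ± 9.47 in endothelium.

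Each class was also tested against the mean of the others in the control libraries (edgeR quasi-likelihood test with Benjamini-Hochberg adjustment over 13048 genes, adjusted p under 0.05, 33 members tested). In endothelium 30 members were higher and 1 lower, while 26.8% of all genes were higher and 18% lower. The median member lay 2.52 above the other classes on the log2 scale. The largest differences there were for Ifi44 (log2 difference 6.80, SE 0.26, adjusted p = 1.4e-27), Slfn5 (5.96, SE 0.13) and Rsad2 (5.56, SE 0.24), and the exception was Ifi27l2a (-1.65, SE 0.38). Basal keratinocytes stood at the other end, with 0 members higher, 23 lower (21.2% of all genes) and a median of -2.63. This class was 1 cluster, led by Krt24, Lhx2, Wfdc3 and Krt15. Its marker score was 0.929 for basal keratinocytes and 0.405 for hair follicle keratinocytes, the next list. Here and below, its values need not hold for the basal layer of the epidermis. Suprabasal keratinocytes had 0 higher and 20 lower (24.8%).

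Other classes had their own leading members. In macrophages 20 members were higher (31.8% of all genes) and 0 lower, led by Oasl1, an OAS-like protein that restrains translation of Irf7 (6.75, SE 0.23). Dendritic cells shared that lead (Oasl1 6.05, SE 0.24) and had 21 higher (32.7%) and 2 lower (29.3%). Fibroblasts had 20 higher (38.9%) and 2 lower (21.4%), with Ifi204, a DNA sensor of the HIN-200 family, at a difference of 3.97 (SE 0.16). Schwann-like cells had 13 higher (22.8%) and 4 lower (16.1%), led by Ifit3 (4.06, SE 0.49), and pericytes 10 higher (26.7%) and 5 lower (20%), led by the GTPase gene Ifi47 (3.11, SE 0.20). Dermal papilla-like cells had 2 higher (28.1%) and 20 lower (18.5%), and lymphatic endothelium 20 higher (19%) and 2 lower (16.1%). Lymphoid cells lay between, with 8 higher (22.9%) and 9 lower (26.6%) in NK or innate lymphoid cells and 6 higher (26.7%) and 12 lower (27.2%) in T cells. Ifit3 and Ifit3b are a near-identical pair whose reads the counting can split or drop. The other Ifit genes and the Oas genes belong to families of like sequences, so the values of all these genes are less certain.

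**Figure D1:**
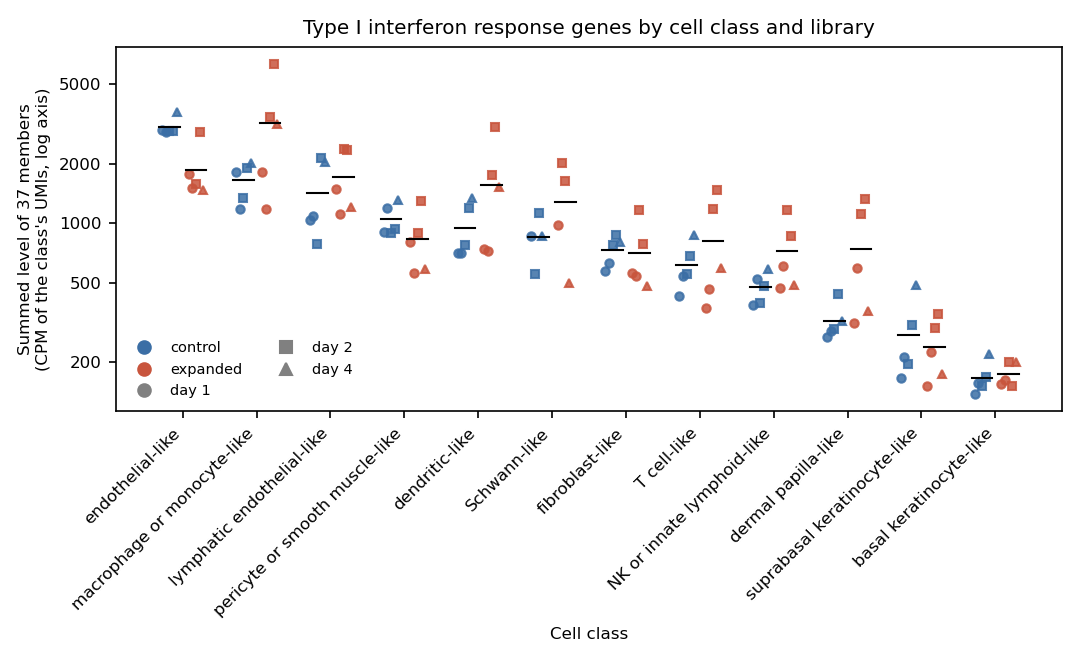
Summed level of the 37 members (CPM, log axis) by cell class, 1 point per library, with colour for the arm, shape for the day and a bar at the mean of the arm. In control libraries endothelium sits highest among the tested classes (2898 to 3629 CPM); expanded libraries lie below their controls in endothelium, and in macrophages the day 2 and day 4 expanded libraries lie above every control while those of day 1 are level.

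Endothelium and macrophages, the classes that held most of these maxima, moved in opposite directions with the expander. In macrophages the summed level of the 37 members was 1647 ± 366 CPM in control and 3189 ± 2004 in expanded libraries (n = 5 each). In endothelium it was 3068 ± 314 in control and 1845 ± 591 in expanded libraries. By pair, the macrophage sums were 1805 against 1806 and 1178 against 1188 on day 1, 1339.7 against 3424 and 1906 against 6366 on day 2, and 2007 against 3162 on day 4. The endothelial sums were 2950.2 against 1782 and 2898 against 1504 on day 1, 2931 against 1585 and 2931 against 2882 on day 2, and 3629 against 1476 on day 4. Macrophage sums thus stood level on day 1 and apart from day 2. Endothelial sums were lower in all 5 expanded libraries, with round 2 of day 2 close to its control. Slfn5 alone gave 31.7% of the member UMIs of endothelium.

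In macrophages and monocytes, the cells that take up debris and microbes, 21 of 34 tested members rose and 2 fell (edgeR quasi-likelihood test, day as covariate, adjusted p under 0.05), while 25.9% of all tested genes were called, 12.2% higher and 13.7% lower. The median log2 fold change was 1.13 for these members and 0.03 over all genes. Here and below, a member that is expressed in few cells of either arm fell under the count filter, so the tested members are not all members.

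Of the 3 transcription factors, 2 rose. Irf7, the factor that amplifies interferon alpha production, read 8.60 and 10.00 CPM in the day 1 controls against 37.3 and 20.5 in their expanded partners. On day 2 it read 8.26 and 37.4 against 112 and 201, and on day 4 it read 30.7 against 111. Every pair was higher in the expanded library, but the lowest expanded value lay under the highest control value. The log2 fold change was 2.05 (SE 0.36, adjusted p = 0.00403). Stat2, a subunit of ISGF3, had 18.9 ± 4.96 CPM in control and 36 ± 15.3 in expanded libraries, and missed the threshold (0.79, SE 0.29, adjusted p = 0.0699).

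Isg15 read 28.4 and 23.1 CPM in the day 1 controls and 47.2 and 103 in the day 1 expanded libraries. On day 2 it read 62.8 and 93.4 in control and 328 and 522 in expanded libraries, and on day 4 it read 58.1 and 297. All 5 pairs were higher with the expander, although the round 1 value of day 1 lay within the control range. The log2 fold change was 2.01 (SE 0.28, adjusted p = 0.00186).

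The 3 tested IFIT genes all rose, with a median log2 fold change of 2.67. IFIT proteins bind viral RNA by its 5′ end and block its translation. Ifit3 read 2.80, 0.526, 2.48, 8.17 and 10.6 CPM in the 5 controls and 7.58, 3.12, 34.4, 46.2 and 37.7 in the matching expanded libraries. The day 2 and day 4 expanded libraries stood above every control, and the day 1 libraries did not. Ifit2 rose from 3.9 ± 5.13 to 30.9 ± 21 CPM (2.84, SE 0.52, adjusted p = 0.00481) and Ifit1 from 3.62 ± 5.84 to 27.2 ± 18 CPM (2.67, SE 0.51, adjusted p = 0.00566).

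Among the sensors, 4 of 7 rose and 1 fell. Dhx58, a helicase also called LGP2 that modulates RIG-I-like receptors, read 4.73, 4.73, 6.61, 11.7 and 10.6 CPM in the controls and 16.9, 25.7, 36.9, 71.9 and 37.1 in the expanded libraries. The arms did not overlap for Dhx58 (2.15, SE 0.27, adjusted p = 0.00138), as for 1 other member, Oas1a, an enzyme that makes 2′-5′ oligoadenylates. The share of all genes without overlap is not given here. Ddx60, another helicase, went down: 84.5, 45.2, 72.7, 37.1 and 73.3 CPM in control against 39.1, 5.55, 29.6, 30.8 and 21.7 in expanded libraries (-1.44, SE 0.42, adjusted p = 0.0291).

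In the restriction group, Rsad2 rose from 26.2 ± 16.9 to 130 ± 77.6 CPM (1.93, SE 0.53, adjusted p = 0.025). Its neighbour on the chromosome, Cmpk2, a mitochondrial nucleotide kinase, rose by a log2 fold change of 2.15 (SE 0.45, adjusted p = 0.00788). Bst2 was at 143 ± 55.8 and 151 ± 71.1 CPM, a log2 fold change of -0.05 (SE 0.30). Ifi27l2a was higher in all 5 pairs (365 ± 210 against 860 ± 696 CPM) and did not pass the test (0.98, SE 0.56, adjusted p = 0.221).

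In the OAS group 4 of 6 members rose and Oasl1 fell. Oasl1 read 154, 125, 136, 17.2 and 118 CPM in the controls and 13.4, 20.5, 36.0, 58.1 and 48.0 in the expanded libraries. It was lower in 4 pairs and higher in round 2 of day 2 (-1.79, SE 0.58, adjusted p = 0.044). The call was lost in 8 of the 10 fits that left out a library, with adjusted p up to 0.165. It was also lost with the pairing of rounds as a block (-1.68, adjusted p = 0.0802) and with hashed mice as units (-0.77, adjusted p = 0.224). Of the 10 macrophage calls recomputed in this way, 7 were kept in every such fit, Isg15, Irf7, Dhx58, Cmpk2, Ifit1, Ifit2 and Ifit3, while those of Rsad2, Oasl1 and Ddx60 were not. Without the day 4 control library 15 members were called, and without the day 4 expanded library 12. With cells thinned to 2000 UMIs, 24 members could be tested and 12 of them rose and 2 fell, with 21.8% of all genes called.

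**Figure D2:**
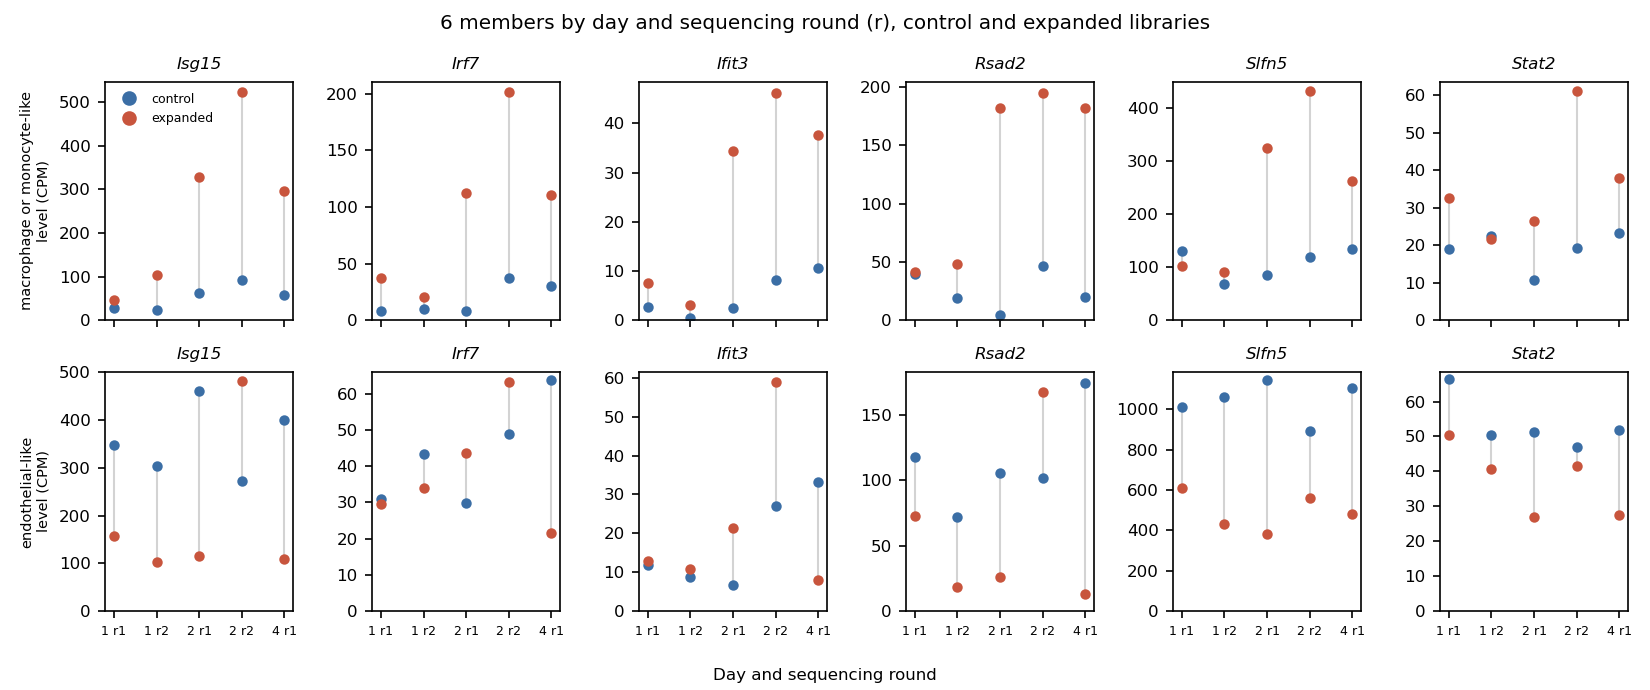
Levels of 6 members (CPM) in macrophages (top) and endothelium (bottom) by day and sequencing round, 1 point per library, with a line joining the control and expanded library of a round. In macrophages the day 2 and day 4 expanded libraries sit highest for Isg15 and Ifit3, and in endothelium the 5 expanded libraries lie below the 5 controls for Slfn5.

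The macrophage class held 2 clusters in unequal shares. A cluster led by Chil3, Msr1 and Ly6c2 gave 486 control and 2266 expanded cells, and a cluster led by Cd209f, Folr2 and C1qc gave 1655 control and 124 expanded cells. Within the Chil3 cluster alone, 4 of 37 members were called, all higher, against 0.495% of all genes, and the median member was at a log2 fold change of 1.14 against 0.04 over all genes. Rsad2 (1.99, adjusted p = 0.0145) and Cmpk2 (2.25, adjusted p = 0.0385) were among them. Oasl1 and Ddx60 turned there to 1.75 and 0.64, without a call, so their fall in the class was not seen within this cluster. Members that led the result of the whole class were not called in this cluster: Isg15 was at 1.32 (adjusted p = 0.266 by edgeR), Irf7 at 1.03 (0.391), Ifit1 at 1.52 (0.112), Ifit2 at 1.62 (0.379), Ifit3 at 1.70 (0.188) and Dhx58 at 1.71 (0.0989). The summed level in the Chil3 cluster was 1341, 886, 1761 and 2257 CPM in the 4 controls with at least 20 cells and 1436, 1178, 3422, 6444 and 3171 in the expanded libraries. In the Cd209f cluster it was 1206 to 2417 CPM in the controls and 2284 and 1288 in the 2 expanded libraries with at least 20 cells, both of day 1.

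Markers of other cells moved with the macrophage result. The summed neutrophil markers (10 genes, all detected) were at 52.9 to 165 CPM in control and 334 to 1917 in expanded libraries, and the dendritic list (11 genes) at 5736 to 15074 against 1023 to 4698. The fibroblast list was at 357 to 2434 against 64.2 to 381. Their part in the result was not tested.

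Dendritic-like cells, which present antigen to T cells, shared the direction: 10 of 32 tested members rose and 1 fell, with 19% of all genes called (9.05% higher, 9.98% lower), and the median member lay at 0.82. Ifit3 (1.91, SE 0.40, adjusted p = 0.0108), Oasl2 (1.55, SE 0.28, adjusted p = 0.00616), Rtp4, a chaperone-like protein that binds viral replication complexes (1.48, SE 0.30), and Xaf1, an apoptosis regulator (1.45, SE 0.34), rose in every fit that left out a library. Rtp4 read 2.77, 4.35, 5.73, 11.4 and 15.2 CPM in the controls and 10.5, 8.45, 33.2, 57.5 and 26.3 in the matching expanded libraries, higher in all 5 pairs. Oasl1 again fell, from 80.5, 65.6, 72.4, 32.5 and 47.2 to 3.14, 22.5, 27.6, 27.5 and 26.3 CPM, and the arms did not overlap (-1.67, SE 0.43, adjusted p = 0.0234; up to 0.0603 in the fits without a library). Isg15 was at 80.7 ± 25.5 and 125 ± 79.7 CPM (0.20, SE 0.30, adjusted p = 0.671). With each cell thinned to 2000 UMIs, 11 members could be tested and 1 was called, with 11.4% of all genes called. Oasl1 was at -0.94 there (adjusted p = 0.17 by edgeR). Without the day 2 round 2 expanded library 7 members were called. The dendritic class was 1 cluster led by Lyz1, Ear2 and Mgl2. Its marker score was 0.644 for dendritic cells and 0.58 for macrophages or monocytes, so its name was barely separated from theirs. The summed macrophage markers of these cells were at 8417 to 13600.4 CPM in control and 4497 to 9335 in expanded libraries, and their part was not tested.

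In dermal papilla-like cells, the fibroblast-like cells at the base of the hair follicle that instruct hair growth, 4 of 11 tested members rose and none fell, with 7.41% of all genes called (4.06% higher). Isg15 read 23.6, 23.8, 27.7, 61.2 and 41.5 CPM in the controls and 43.1, 83.1, 237, 219 and 46.3 in the expanded libraries, higher in every pair and highest on day 2 (1.40, SE 0.30, adjusted p = 0.0103). Ifih1, the RNA sensor MDA5 (1.26, SE 0.30, adjusted p = 0.019), Stat2 (1.03, SE 0.29, adjusted p = 0.0425) and Ifi204 (0.90, SE 0.23, adjusted p = 0.0238) rose as well, and each of these 3 lost its call in at least 3 of the fits that left out a library. The count was 1 without the day 2 round 2 control or expanded library, 2 without either day 4 library and 6 without the day 1 round 1 expanded library.

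Endothelial-like cells went the other way. Of 32 tested members 11 fell and 0 rose, while 11.4% of all genes were called (6.11% lower), and the fold change was above 0 for 1 of them, with a median of -0.71 against 0.02 over all genes. Slfn5 read 1011, 1063, 1148, 893 and 1105 CPM in the controls and 611, 432, 381, 559 and 479 in the expanded libraries. The arms were far apart for this gene (-1.19, SE 0.15, adjusted p = 0.00113). Parp14, an ADP-ribosyltransferase, read 225, 218, 167, 188 and 247 against 88.1, 85.7, 84.8, 129 and 119 CPM (-1.17, SE 0.15, adjusted p = 0.00139), again without overlap.

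Ifi47 fell from 89.7 ± 18.2 to 39.7 ± 9.19 CPM (-1.34, SE 0.18, adjusted p = 0.00186), Ifi204 by 1.30 on the log2 scale (SE 0.19, adjusted p = 0.00215) and Herc6, the mouse ligase that attaches Isg15, by 1.23 (SE 0.21, adjusted p = 0.00509). In all, 6 of the 32 members had every expanded library below every control. The matching share of all genes is not given here, so this count has no background. Of the ISGF3 subunits, Stat2 read 66.5, 50.5, 51.2, 47.0 and 51.9 in control and 50.5, 40.6, 26.8, 41.6 and 27.5 CPM in expanded libraries (-0.64, SE 0.16, adjusted p = 0.0234; up to 0.105 without a library). Rtp4 fell by 1.14 (SE 0.27, adjusted p = 0.0197; up to 0.0843 without a library). The calls of Slfn5, Parp14, Ifi47, Ifi204 and Herc6 held in every such fit.

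The IFIT and OAS groups had no call in endothelium (0 of 4 and 0 of 3 tested). Round 2 of day 2, with 48 expanded cells, stood apart for several members. There Isg15 read 482 CPM against 273 in its control, Rsad2 168 against 102 and Ifit3 58.9 against 27.1. In the other 4 expanded libraries Isg15 read 158, 102, 116 and 109.7, all below its lowest control value. Isg15 missed the threshold with all libraries (-1.15, SE 0.35, adjusted p = 0.0523) and passed it without that library (-1.65, adjusted p = 0.00206). Slfn5, Parp14 and Ifi47 were lower in this pair too. With cells thinned to 2000 UMIs, 21 members could be tested and 5 fell, with 6.37% of all genes called. The calls of Ifi204 (-0.78, adjusted p = 0.116), Herc6 (-0.73, adjusted p = 0.132) and Stat2 (-0.40, adjusted p = 0.391) were lost there.

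Endothelial markers were at 6492 to 7440.4 CPM in control and 6659 to 7835 in expanded libraries. The fibroblast list, 10 genes that endothelium should lack, was at 1031 to 2223 CPM in control and 24.4 to 3744 in expanded libraries, and its part was not tested. In basal keratinocytes, where the members are lowest, the control sum of all members was 168 ± 31.9 CPM, far under the 3068 ± 314 of endothelium.

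**Figure D3:**
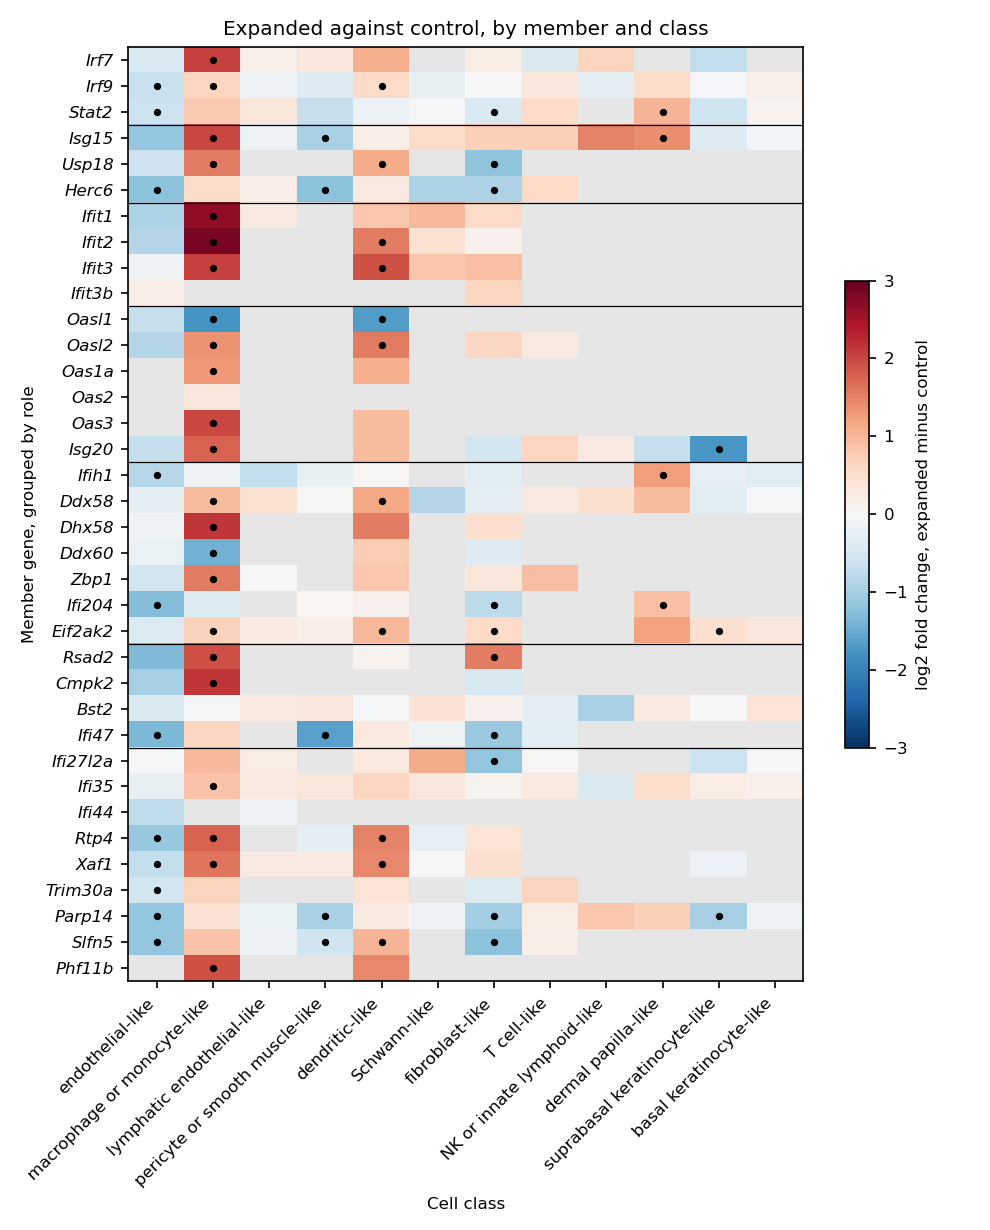
Log2 fold changes (expanded minus control) of the members by class, with dots on called members and grey where a member was not tested. Ifit1bl1, tested in no class, is not drawn. The macrophage and dendritic columns are mainly above 0, and the endothelial column is below 0 for nearly all tested members.

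Fibroblast-like cells, the matrix-forming cells of the dermis, were divided: 2 of 30 tested members rose and 8 fell, where 34.6% of all genes were called (17.4% higher, 17.2% lower), so the share of members called (33.3%) lay at the background. Slfn5 read 41.9, 39.8, 94.5, 65.9 and 44.2 CPM in the controls and 25.6, 15.5, 38.6, 37.5 and 21.7 in the expanded libraries, below in every pair (-1.22, SE 0.16, adjusted p = 5.0e-04). Parp14 (-1.01, SE 0.16), Usp18, the protease that removes Isg15 (-1.21, SE 0.32), Ifi27l2a (-1.19, SE 0.32), Ifi47 (-1.11, SE 0.28) and Herc6 (-0.92, SE 0.21) fell as well. Eif2ak2, the RNA-activated kinase PKR, rose from 15.5, 17.2, 18.1, 19.9 and 21.8 to 28.3, 27.3, 41.5, 32.1 and 28.5 CPM without overlap (0.58, SE 0.13, adjusted p = 0.00593). Rsad2 rose from 2.11 ± 0.763 to 9.37 ± 9.05 CPM (1.54, SE 0.51, adjusted p = 0.0387), with 12.4 and 23.9 CPM on day 2 and 2.87 on day 4. Its call was lost in 6 of the fits that left out a library and with the pairing of rounds as a block (1.51, adjusted p = 0.052). The call of Eif2ak2 was lost in thinned cells (0.52, adjusted p = 0.0652). With hashed mice as units Slfn5 was at -0.47 (adjusted p = 0.112), Ifi27l2a at -0.11 (0.909), Ifi47 at -0.83 (0.0509) and Stat2 at -0.49 (0.0556), so these 4 calls were lost.

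Different clusters held the fibroblasts of the 2 arms. A cluster led by Col1a2 and C4b gave 3036 control and 56 expanded cells, and a cluster led by Cadps and Igfbp2 gave 1919 and 964. Another cluster of the class, with 1147 cells at low depth, had the genes Gm42418, AY036118 and Lars2 among its leading genes. In a cluster led by Apod and Gpx3 the summed level was 918 to 1609 CPM in 5 control and 361 to 617 in 4 expanded libraries. The arms overlapped in the Cadps cluster (469 to 809.6 against 443 to 1147) and in a cluster led by Cilp (565 to 999 against 633 to 1899). These cluster sums were not tested, and were named after their values were seen. Within the Cadps cluster alone, 1 of 28 members rose and 6 fell, with 30.1% of all genes called, and Ifi27l2a turned to 0.78. Slfn5 was at -0.66 there (adjusted p = 0.0173), and Usp18 at -0.62 (adjusted p = 0.242) was not called. The summed fibroblast markers were at 68226 to 181906 CPM in control and 27573 to 84868 in expanded libraries, and the dermal papilla list at 54.4 to 201 against 157 to 1745. Their part was not tested.

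In pericyte or smooth muscle-like cells, which wrap small vessels, 5 of 16 tested members fell and 0 rose, with 19.5% of all genes called (11.4% lower). Ifi47 read 95.2, 81.3, 119.5, 87.0 and 149.8 CPM in the controls and 31.5, 13.4, 39.5, 78.2 and 27.6 in the expanded libraries, with every expanded value under every control (-1.64, SE 0.30, adjusted p = 0.00298). Isg15 fell from 395 ± 148 to 222 ± 77.8 CPM (-0.97, SE 0.30, adjusted p = 0.0386; up to 0.15 without a library). Of the 5 calls, that of Ifi47 held in every fit without a library. The call of Herc6 was lost with the pairing of rounds as a block (-1.17, adjusted p = 0.0541). The count was 1 or 2 without either day 4 library, either round 2 library of day 1, or the round 1 expanded library of day 1 or day 2.

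Keratinocytes and lymphoid cells showed few calls. In basal keratinocytes 0 of 10 tested members were called (1.79% of all genes; 0 members at an unadjusted p under 0.05), and Isg15 was at 10.5 ± 7.06 and 10.7 ± 5.77 CPM. In suprabasal keratinocytes 1 of 13 rose and 2 fell (25.9% of all genes, 12.9% in each direction), and none of the 3 calls held in every fit without a library. The count was 0 without the day 1 round 2 control and 1 without the day 4 control. The exonuclease gene Isg20 had the largest change there, at -1.75 (SE 0.45, adjusted p = 0.0146).

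The tests called 0 of 17 members in lymphatic endothelium (12.8% of all genes; 1 at an unadjusted p under 0.05), 0 of 16 in T cells (0.292%; 3), 0 of 8 in NK or innate lymphoid cells (0.67%; 3) and 0 of 15 in Schwann-like cells (0.236%; 2, with 4 libraries per arm). The share of all genes at the unadjusted threshold is not given here. In NK or innate lymphoid cells Isg15 nevertheless read 16.2, 43.9, 45.7, 41.2 and 42.1 CPM in control and 54.5, 65.7, 121, 381 and 83.1 in expanded libraries. Those arms did not overlap (1.49, SE 0.38, adjusted p = 0.105). The T cell sums went both ways over days, and a test over all days averages them. Control against expanded, they were 433 against 376 and 542 against 469.9 CPM on day 1. On day 2 they were 556 against 1183 and 688 against 1479.9, and on day 4 they were 870 against 594. Neutrophils, mast cells and melanocytes had too few libraries for a test. The neutrophil sum was 1957 ± 744 CPM in 2 control and 3788 ± 4271 in 4 expanded libraries, with Isg15 giving 40.9% of it.

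Counted over the 12 tested classes, 32 of the 36 members tested in any class (88.9%) were called in at least 1 class, where 55.1% of all genes tested in any class were. Of these, 15 were called higher only, 7 lower only, and 10 higher in at least 1 class and lower in another: Isg15, Irf9, Stat2, Usp18, Ifih1, Rtp4, Xaf1, Slfn5, Ifi204 and Isg20. Ifit3b, Oas2, Bst2 and Ifi44 were tested without a call. Ifit1bl1 passed the count filter of no class in this comparison, and was called on day 2 in macrophages in the fit by day, with the limit given there.

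The difference between classes was tested itself for 4 pairs of classes, with the library as block. Macrophages against endothelium gave 22 of 36 members with a lower expanded-control difference in endothelium and 0 with a higher one, where 6.93% of all genes were called in either direction and 3.37% lower in endothelium. For Isg15 this gap was -3.27 on the log2 scale (SE 0.58, adjusted p = 0.00631), for Ifit1 -3.79 (SE 0.92, adjusted p = 0.025) and for Rsad2 -3.65 (SE 0.77, adjusted p = 0.0148). Without round 1 of day 2 the count was 2, and without day 4 it was 5. The macrophage and fibroblast classes held their clusters in unequal shares in the arms, and these gaps within a cluster are not given here. In the Chil3-led macrophage cluster alone Rsad2 was called higher, and Isg15 and Ifit1 were not called.

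Macrophages against fibroblasts gave 10 of 36 members with a higher difference in macrophages (14.4% of all genes called, 5.01% in this direction), among them Usp18 (2.84, SE 0.56, adjusted p = 0.00931), Cmpk2 (2.67, SE 0.62) and Slfn5 (2.05, SE 0.38). Fibroblasts against endothelium gave 6 of 34 with a lower difference in endothelium (5.56%, and 3.81% in this direction), led by Rsad2 (-3.03, SE 0.38, adjusted p = 9.7e-04) and Isg15 (-1.99, SE 0.50, adjusted p = 0.0341). For Slfn5, which fell in both of those classes, the gap was -0.01 (SE 0.33). Fibroblasts against suprabasal keratinocytes gave 0 of 29 (4.82%). For macrophages against fibroblasts the count was 4 without round 2 of day 1, round 1 of day 2 or day 4, and for fibroblasts against endothelium 2 without round 2 of day 1 and 3 without round 1 of day 2.

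By day, the median member of macrophages had a log2 fold change of 0.50 on day 1, 2.05 on day 2 and 1.29 on day 4, and in endothelium of -0.76, -0.22 and -1.45. Dendritic cells gave 0.38, 1.36 and 0.39, dermal papilla-like cells 1.07, 1.82 and 0.16, and T cells -0.21, 1.17 and -0.55. Day 2 thus held the highest of the 3 medians in each of these classes. A test that the 3 daily differences are equal called 0 members in the 11 classes with all 10 libraries. It called 0.00956% of all genes in dendritic cells, 0.00896% in endothelium, 0.0312% in dermal papilla-like cells, 0.0305% in NK or innate lymphoid cells and 0% in the others. At an unadjusted p under 0.05 it gave 3 members in macrophages, 10 in endothelium, 10 in dendritic cells and 9 in fibroblasts. The share of all genes at that threshold is not given here, so these counts have no background. With the pairing of rounds as a block the same test called 1 member in endothelium, and its share of all genes is not given either. With libraries as units and no block, a change over days was therefore not shown for any member.

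Single days have 2 libraries per arm or, on day 4, 1, whose spread was taken from the other days. On day 2 macrophages had 1 member called, Ifit1bl1 (log2 fold change 6.05, adjusted p = 0.0438 by edgeR), where 0.352% of all genes were called. Its mean control level was at most 0.890 CPM in any tested class. The count filter by day can admit a gene through 1 library where it is high, so this call adds no support. At an unadjusted p under 0.05 there were 29 of 37 members. With the pairing of rounds as a block 26 members were called on that day, and with hashed mice as units 28. The block fit estimates a level for every pair and an effect for every day, so few degrees of freedom remain. The 7 mice of each arm came from 2 libraries, so they are not independent replicates. Over all days these settings called 32.2% and 49.5% of all genes in macrophages. Their shares on day 2 alone, and the share of all genes at the unadjusted threshold, are not given here. Without 1 library the count ran from 0 to 13: it was 0 without either round 1 library of day 2, the day 2 round 2 expanded library or either day 1 control, and 10 to 13 without a day 1 expanded library or the day 2 round 2 control. On day 2 fibroblasts had 4 members higher, Rsad2 (3.13), Ifit3 (2.21), Oasl2 (1.69) and Eif2ak2 (0.86), and Slfn5 lower (-1.20), where 4.77% of all genes were called. On day 1 they had Slfn5 (-1.28) and Parp14 (-1.18) lower (4.87%). Dermal papilla-like cells had 4 higher on day 2 (0.458% of all genes), Ifi27l2a (3.68), Irf7 (2.30), Isg15 (2.11) and Stat2 (1.87). Dendritic cells had Rtp4 (2.19) and Slfn5 (1.73) higher (0.497%).

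Endothelium had its calls on day 1, where Rtp4 (-1.82), Ifi47 (-1.60) and Parp14 (-1.51) fell (0.591% of all genes), with 6 calls under the block and 0 without either day 1 control or the day 1 round 2 expanded library. On day 4, with 1 library per arm, the median member of endothelium was at -1.45. With hashed mice as units 22 members were called there. The 4 mice of an arm shared 1 library on that day, so arm and library cannot be told apart. Pericytes had Ifi47 lower on day 1 (-2.09; 0.608%) and day 4 (-2.58; 2.05%), Isg15 lower on day 4 (-2.44) and Ifit3 higher on day 2 (3.14; 2.72%). Suprabasal keratinocytes had Ifi204 (-2.91) and Isg20 (-2.59) lower on day 1 (10.2%). The pericyte Ifit3 levels on day 2 were 2.78 and 5.18 CPM in control and 17.1 and 68.4 in expanded libraries. No IFIT gene passed the filter of pericytes in the fit over all days. Ifit3 may thus have entered the fit by day through a library where it was high.

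Hashed mice of the pools gave levels per animal in 8 of the 10 libraries. On day 2 the macrophage sum was 1294, 1367, 1340.4, 2193, 1755, 1177 and 2020.1 CPM in the 7 control mice. It was 2621, 1836 and 7235 in the expanded mice of round 1 and 6378, 7565, 1701 and 6933 in those of round 2. Thus 5 of 7 expanded mice stood above the highest control mouse, and the other two lay within the control range. On day 4 the macrophages of 3 of 4 expanded mice stood above every control mouse (3598, 2559.6 and 3538 CPM against 1768 to 2190.4) and 1 below (1009).

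In endothelium on day 4, all 4 expanded mice (1277, 1367, 1638 and 1917 CPM) were below all 4 control mice (4834, 3724, 3320.3 and 4243). Dendritic sums on day 2 were above the highest control mouse in 2 of 4 expanded mice, and suprabasal keratinocyte sums on day 4 were below the lowest control mouse in 3 of 3. Mice of 1 pool share a library, so they are not independent of it.

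**Figure D4:**
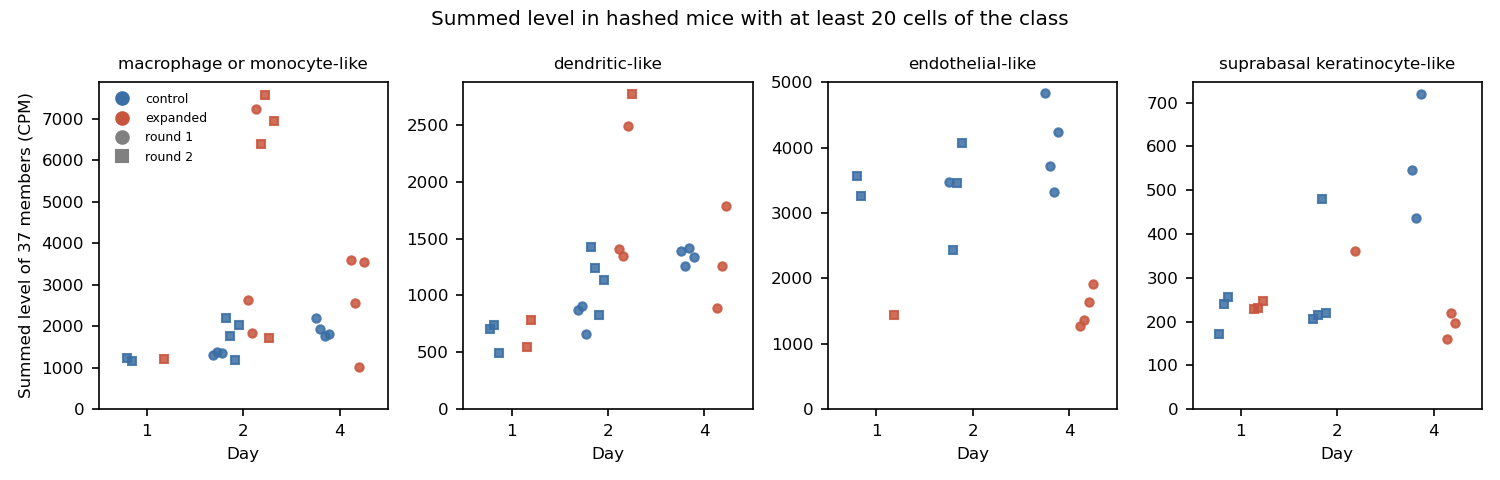
Summed member level (CPM) per hashed mouse with at least 20 cells of the class, by day, 1 point per mouse, with colour for the arm and shape for the sequencing round. Endothelium has no expanded mouse on day 2. Macrophages of 5 of 7 expanded mice lie above the controls on day 2, and endothelium of 4 of 4 expanded mice lies below the controls on day 4.

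The share of cells with at least 5 members detected was compared after thinning each cell to 2000 UMIs. In macrophages it was 8.40%, 4.28%, 6.11%, 14.8% and 14.6% in the controls and 8.13%, 8.13%, 32.8%, 58.9% and 29.4% in the expanded libraries. The day 2 and day 4 expanded libraries stood above every control. In endothelium it was 29.9%, 29.9%, 27.8%, 32.7% and 33.9% in control against 16.8%, 10.8%, 10.5%, 40.0% and 11.6% in expanded libraries. In both keratinocyte classes it stayed between 0% and 1.75%. Thinning left out 2483 control and 1038 expanded cells. Unthinned, the mean difference between arms in endothelium was 9.15 percentage points above 0, against -12.9 thinned.

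Of the ligands, 14 of 20 type I and III interferon genes had no UMI in 45480 cells, which allows a share of up to 0.00660% of cells with a UMI. Ifnb1, interferon beta, had 95 UMIs in 30 cells, 57 in control and 38 in expanded libraries, with 47 in macrophages. Ifnk, the interferon kappa of keratinocytes, had 403 UMIs in 202 cells, 205 in control and 198 in expanded libraries, of which 256 lay in unnamed clusters. The day 4 expanded library alone gave 30 of the 38 Ifnb1 and 110 of the 198 Ifnk UMIs of the expanded arm. The arms held 28439 control and 17041 expanded cells, and these sums are not compared between them. Ifng had 1072 UMIs in 285 cells, 907 of them in NK or innate lymphoid cells. Of the receptor and JAK-STAT list, 3 of 9 tested genes rose in macrophages (12.2% of all genes higher), the kinase gene Jak2 (1.00, SE 0.27), the receptor gene Ifnar1 (0.80, SE 0.24) and the receptor gene Ifngr2 (0.63, SE 0.21).

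Genes known mainly for interferon gamma fell in several classes. Of this list 8 of 9 tested genes fell in endothelium (6.11% of all genes lower), 6 of 10 in fibroblasts (17.2%) and 5 of 8 in pericytes (11.4%), and none rose there. In endothelium Iigp1, an immunity-related GTPase, fell from 1420 ± 229 to 523 ± 161 CPM (-1.57, SE 0.18, adjusted p = 9.5e-04), and the guanylate-binding protein gene Gbp2 from 291 ± 95.4 to 101 ± 18.4 CPM (-1.62, SE 0.19, adjusted p = 0.00112). In macrophages 3 of 11 fell (13.7% of all genes) and 1 rose (12.2%). There Iigp1 fell from 53.2 ± 21.8 to 10.6 ± 8.71 CPM (-2.52, SE 0.51, adjusted p = 0.00697 by edgeR), in the class where Isg15 and the tested Ifit genes rose. The chemokine gene Cxcl10, which both kinds of interferon induce, rose from 21.3 ± 20.7 to 72 ± 37 CPM (1.72, SE 0.49, adjusted p = 0.0285 by edgeR). The macrophage class held its clusters in unequal shares in the arms, and values of Iigp1 and Cxcl10 within a cluster are not given here.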

How the data were processed

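Skin cells of 10 mRNA libraries were measured by 10x 3′ v3.1 sequencing with hashing antibodies. The deposited matrices hold UMI counts per gene and barcode with no normalization, made with Cell Ranger 6.1.2 on mm10 per the submitters' processing notes, and the gene annotation is not given in the sources used here. Gene UMIs per library ran from 17726739 to 75470722, and the floors and shares carry counting error alone.

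Cells needed 200 genes, 500 UMIs and a mitochondrial share of no more than 10%. Doublets were removed where Scrublet (expected rate 0.008 per 1000 cells) or 2 hashtags marked them. Cells were clustered with scanpy 1.11.5 and leidenalg 0.10.2 in Python 3.11.15 (2000 variable genes without the members, 30 components, 15 neighbours, resolution 1). Clusters were named from marker lists, and the rules were settled while clusters were examined. Mice were assigned with HTODemux of Seurat 5.3.0 at quantile 0.99.

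UMIs were summed per class and library over units with at least 20 cells, in classes with at least 4 libraries per arm. In edgeR 4.0.16 under R 4.3.3, filterByExpr removed genes of low counts, TMM set the scale, and the quasi-likelihood test had day as covariate and Benjamini-Hochberg adjustment over all genes tested. DESeq2 1.42.0 was an alternative. Class-by-arm fits had the library as block. On simulated counts with known changes, the macrophage fit over 9486 genes recovered 49.3% of genes changed 2-fold and 95.5% of those changed 4-fold. The endothelial fit over 9417 genes recovered 67.2% and 100%. The simulated counts held no effect of day, round or cluster mix, so these rates need not hold for the data.

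Libraries of a day and sequencing round were paired by the labels, which name the round. Over 59 class-wise pairs, the correlation of deviations from the arm means was -0.01 to 0.53 with a median of 0.26, and 47 were over 0.1.

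Members were named by these rules: per class up to 6 called higher and 6 lower with the largest change, 7 members (Isg15, Irf7, Ifit3, Stat2, Bst2, Ifi27l2a, Rsad2) in every class tested, members called on single days, and the 3 leading members of a class. The members, lists and tests were chosen with earlier results of these data known. Oas1a and the members listed by name for having no call, or calls in both directions, were named after their values were seen.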

Additional observations from a re-analysis of the deposited data

Results flagged for a closer look

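The expanded-control difference itself differed between classes for 10 members between fibroblasts and macrophages (all higher in macrophages), for 6 between fibroblasts and endothelium (all lower in endothelium) and for 22 between macrophages and endothelium (all lower in endothelium), by the class-by-arm term of edgeR's quasi-likelihood test. The macrophage and fibroblast classes held their clusters in unequal shares in the arms, and the part of this in these counts was not tested.

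Among 21 groups of 4 to 10 hashed mice, 4 had a mouse far from the others in the summed member level, where chance marks about 1 in 20 groups. In neutrophils of day 2, expanded mouse 2 of round 2 stood at 14652 CPM, with the next of 5 mice at 3409. In fibroblasts of day 2, control mouse 3 of round 2 stood at 1173 CPM, with the next of 7 at 796. The same control mouse was highest in suprabasal keratinocytes, at 479 CPM with the next of 4 at 220.1. In fibroblasts of day 4, control mouse 2 was lowest at 534 CPM, with the next of 4 at 922.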

How the results depend on the processing

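Counts of called members moved with the depth and the filter. With cells thinned to 2000 UMIs, where fewer genes pass the filter, the counts were 1 in dendritic cells (11 as reported), 2 in dermal papilla-like cells (4), 5 in endothelium (11), 14 in macrophages (23), 3 in pericytes (5), 0 in suprabasal keratinocytes (3) and 8 in macrophages on day 2 (1). Against other classes in control libraries, thinning gave 15 for basal keratinocytes (23) and dendritic cells (23), 14 for fibroblasts (22) and lymphatic endothelium (22), 7 for NK or innate lymphoid cells (17) and 9 for suprabasal keratinocytes (20). Without the filter on low counts they were 23 in dendritic cells, 12 in dermal papilla-like cells, 18 in endothelium, 17 in fibroblasts (10), 4 in NK or innate lymphoid cells (0), 1 in Schwann-like cells (0), 7 in suprabasal keratinocytes and 3 in T cells (0). DESeq2 gave 1 in NK or innate lymphoid cells and 3 in pericytes, a limit of 5% mitochondrial UMIs 3 in pericytes, and members left in the clustering 1 in suprabasal keratinocytes. The cause of these moves was not tested.

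Hashed mice as units, with no expanded mouse of day 2 in endothelium, gave 21 members there (8.54% of all genes). That fit held 10 control and 5 expanded mice, and 4 of the 5 came from the day 4 expanded library. Mice of a library were thus counted as replicates. Hashed mice gave 28 members in macrophages on day 2, where the 7 mice of each arm came from 2 libraries. On day 4, where the mice of an arm shared 1 library, they gave 5 in macrophages and 22 in endothelium. The share of all genes called in these fits by day is not given here. The replicate block, which pairs libraries of a day and round, gave 16 in dendritic cells, 5 in dermal papilla-like cells, 14 in endothelium, 9 in fibroblasts, 25 in macrophages, 4 in pericytes and 2 in suprabasal keratinocytes. By day the block, which leaves few degrees of freedom, gave 3 and 26 members in macrophages on days 1 and 2. It gave 6 and 3 in endothelium on days 1 and 2, and 1 for a difference between days in endothelium. Day 4 aside, it moved no other count by over 1.5 times.

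Leaving out 1 library gave 7 to 11 members in dendritic cells, 1 to 6 in dermal papilla-like cells, 8 to 16 in endothelium, 8 to 12 in fibroblasts, 12 to 23 in macrophages, 1 to 5 in pericytes and 0 to 4 in suprabasal keratinocytes. By day it gave 0 to 3 in macrophages on day 1 and 0 to 13 on day 2, and 0 to 4 in endothelium on day 1. Leaving out a pair gave 4 to 13 members for fibroblasts against macrophages, 2 to 7 for fibroblasts against endothelium and 2 to 24 for macrophages against endothelium. Of the 45 calls of named members that were recomputed, 25 were kept in every fit that left out a library, 41 under the replicate block, 42 by DESeq2, 22 of the 27 tested in thinned cells and 23 of the 29 tested with hashed mice, and none reversed in these fits.

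In the Chil3-led macrophage cluster alone, an alternative chosen after seeing the data, 4 members were called, and Oasl1 (1.75) and Ddx60 (0.64) reversed. In the Cadps-led fibroblast cluster alone, Ifi27l2a reversed (0.78). The thinned share of endothelial-like cells with at least 5 members reversed without thinning (9.15 percentage points) and with at least 8 members (0.965 percentage points).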
